A study of Zea mays with 4 samples.

Results

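Ribosomal protein genes were followed on 4 Affymetrix maize genome arrays, 2 of line F98902 and 2 of line Cm489. The members were all probe sets whose gene symbol or synonym begins with rpl, rps or rpp and a number. The rule found 26 probe sets of 18 genes, out of 1108 genes named on the array and 17621 probe sets without controls. Of these, 8 probe sets belong to 6 genes of the large subunit, 9 to 6 genes of the small subunit and 9 to 6 genes of acidic P proteins. Each array was hybridised with biotin-labelled cRNA amplified from the total RNA of 1 sample. For Cm489, the extraction notes of both samples bear the name of replicate 2, so what was noted for replicate 1 is unclear. F98902 and Cm489 were grown in soil under the same light cycle and humidity, and both were taken at flower development from material labelled aerial. No treatment is given for either line. The series concerns the diversity of the maize cell wall, and the comparison asks which transcripts differ between the lines. The labels do not name the organ. The titles carry a different pl number for each sample of a line, which the labels do not explain and which may number plants, so p-values measure the spread between these samples, which may be technical.

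Ribosomes are built from ribosomal RNA and a large set of small, mostly basic proteins, in a small subunit that reads the message and a large subunit that joins amino acids. The acidic P proteins form a flexible stalk on the large subunit that receives the elongation factors. Plants keep several gene copies for most of these proteins, and their transcripts are abundant in growing and dividing tissue.

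The symbols alone told subunits apart, and the annotation used here carries no description that would separate cytosolic from organellar proteins. Of the 18 genes, 17 matched a RefSeq gene of the B73 assembly, and 0 of these lie on its plastid or mitochondrial sequence. All 17 are therefore nuclear genes, which does not say where their proteins work. RPL27A did not match and keeps the name of the platform annotation. In all, 13 genes had 1 probe set and 5 genes had several. A probe set whose name ends in x_at may share probes with similar genes, and one ending in a_at reads more than 1 transcript of a gene.

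Values are log2 signals, and a probe set was tested when it reached log2 4 on at least 2 of the 4 arrays. This held for 24 of the 26 member probe sets, covering all 18 genes. The other two lay near the floor of the scale, where a value gives no level. The dim probe set of rpp3 had 1.76 and 1.73 in F98902, against 1.75 and 1.73 in Cm489. That of rpp1a had 2.23 and 2.22 in F98902, against 2.93 and 2.22 in Cm489. Both genes had other probe sets with high signal on every array.

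**Figure D1:**
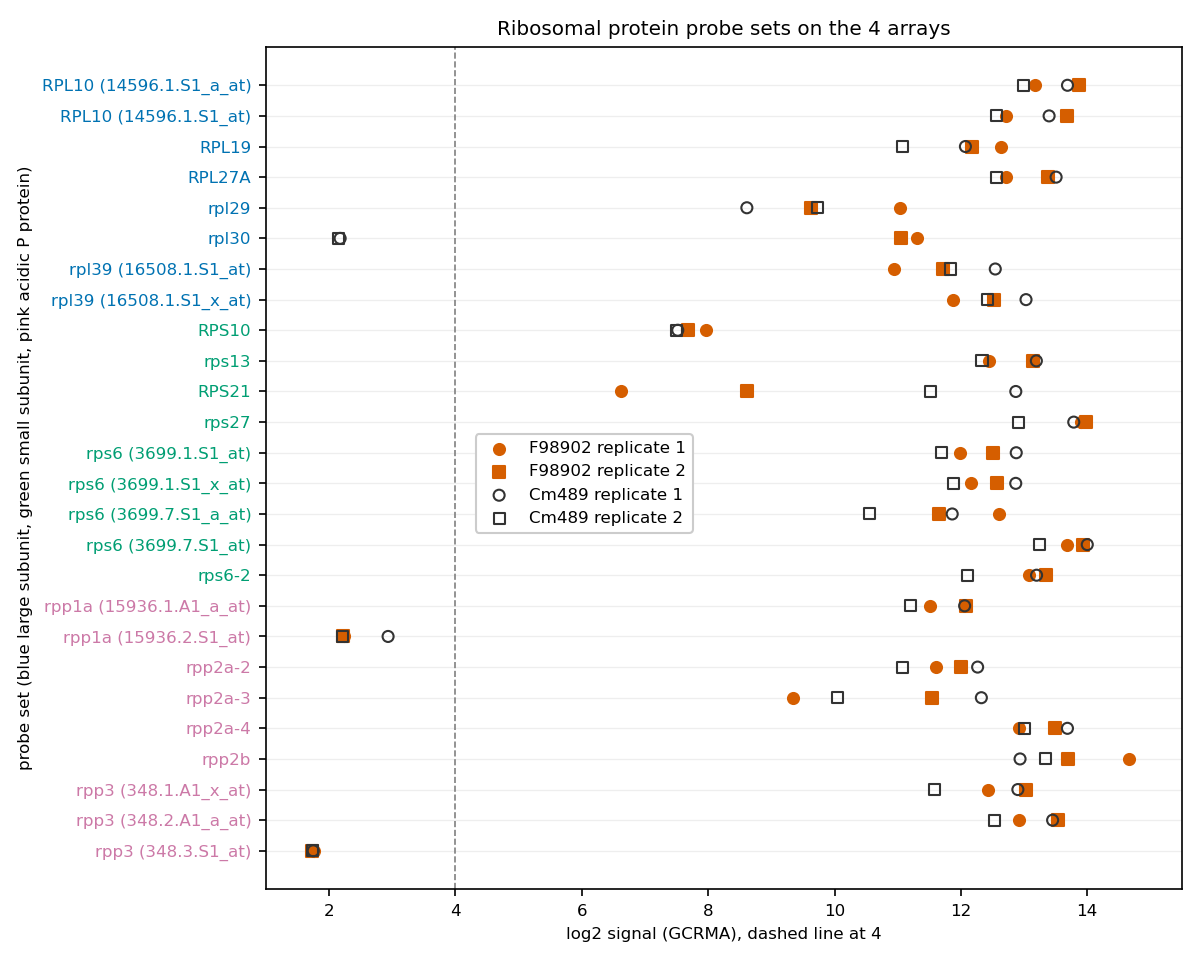
Log2 signal (x axis) of each of the 26 ribosomal protein probe sets (rows, named by symbol and, for genes with several, by probe set without its Zm prefix) on each array. Filled orange symbols are F98902 and open symbols Cm489, circles are replicate 1 and squares replicate 2, and the dashed line marks log2 4. Only rpl30 has the lines on different sides of that line, and RPS21 has both F98902 arrays well below both Cm489 arrays.

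The gene rpl30 (LOC541668) was bright in F98902 and at the floor in Cm489. L30 is a large subunit protein which in Saccharomyces cerevisiae also binds its own transcript and holds back its splicing. Its probe set had 11.30 and 11.06 in F98902, against 2.17 and 2.15 in Cm489. The lines lay far apart, and the F98902 arrays lay close together. The Cm489 arrays lie at the floor, where close values measure no spread, so the probe set reached the filter by its F98902 arrays alone. Against log2 4, the signal was at least 7.18 higher in F98902 on the log2 scale. The fit to the deposited values gave a limma adjusted p of 0.0186, and that with values under log2 4 raised to 4 gave 0.0323. In both fits the Cm489 arrays of rpl30 add no measured spread. Of the 24 tested members 1 passed the threshold of 0.05, against 1.78% of all 11242 tested probe sets (0.934% with the higher and 0.845% with the lower signal in F98902). The rpl30 call was lost with an intensity-dependent robust prior (limma adjusted p = 0.0508), with the replicate number as a block (0.137) and when any 1 array was left out (without F98902 replicate 1, F98902 replicate 2, Cm489 replicate 1 or Cm489 replicate 2), where adjusted p ran from 0.149 to 0.241. The fitted difference, 9.02 and not a bound, stayed between 8.90 and 9.14 with 1 array left out. A missing transcript and a Cm489 sequence that the probes do not match cannot be told apart here. No other member probe set reads this gene.

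RPS21 (LOC542449), a small subunit protein gene, showed the largest difference in the other direction among the tested members. Its probe set had 6.62 and 8.61 in F98902, against 12.87 and 11.51 in Cm489. Both F98902 arrays were below both Cm489 arrays. The F98902 arrays differed more from each other than those of rpl30 did. For Cm489 no such comparison holds, since its rpl30 arrays lie at the floor. The difference was -4.57 (SE 0.93, 95% interval -7.15 to -2.00) and did not pass over all tested probe sets (limma adjusted p = 0.189, unadjusted p = 0.00777). An unadjusted p under 0.05 was found for 2 of the 24 members, rpl30 and RPS21, and for 10.5% of all tested probe sets. With 1 array left out the RPS21 difference was widest without F98902 replicate 2 (-5.57) and narrowest without F98902 replicate 1 (-3.58). In whole samples, fewer cells of a type and less RNA per cell cannot be told apart. Nor can either be told apart from an F98902 sequence that the probes do not match, and no other member probe set reads RPS21.

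The remaining 22 member probe sets lay between log2 7.50 and 14.66 on every array. Their differences, F98902 minus Cm489, ran from -0.85 to 1.17 with SEs from 0.40 to 1.18. None of these 22 passed (limma adjusted p from 0.692 to 0.998), and each 95% interval held 0. The upper ends of these intervals reached from 0.63 to 3.21 and the lower ends from -4.00 to -0.44, so equal levels in the lines were not shown.

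Among large subunit genes, RPL19 (LOC542284), whose protein reaches across to the small subunit, had 12.63 and 12.17 in F98902, against 12.07 and 11.07 in Cm489. The arrays of the lines were apart, with the lower F98902 array close to the higher Cm489 array, and the difference was 0.83 (SE 0.55, limma adjusted p = 0.789). The gene rpl39 (LOC542444), for a very small protein in the tunnel through which the new chain leaves, was the large subunit gene with lower means in F98902. Its probe set ending in at alone had 10.95 and 11.72 in F98902, against 12.54 and 11.83 in Cm489, a difference of -0.85 (SE 0.54, limma adjusted p = 0.771). Its x_at probe set had 11.87 and 12.52 in F98902, against 13.03 and 12.42 in Cm489, a difference of -0.53 with overlapping arrays. For rpl39 both probe sets had the lower mean in F98902, and they come from the same target sequence.

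The gene rpl29 (LOC541790), for another large subunit protein, had 11.04 and 9.63 in F98902, against 8.61 and 9.72 in Cm489. Its arrays overlapped, and the difference was 1.17 (SE 0.74, limma adjusted p = 0.774). RPL10 (LOC542298), whose protein sits near the centre where subunits join, had 13.18 and 13.87 in F98902, against 13.69 and 12.99 in Cm489 by its a_at probe set. Its other probe set had 12.71 and 13.69 in F98902, against 13.40 and 12.56 in Cm489. The RPL10 differences of 0.18 and 0.22 were smaller than the distance between the arrays of either line. RPL27A had 12.71 and 13.38 in F98902, against 13.51 and 12.56 in Cm489, a difference of 0.0142 (SE 0.56).

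Among small subunit genes, rps6 (LOC542529) codes for the protein that the TOR pathway marks through S6 kinase, and it had 4 probe sets, from a pair of target sequences. For the first target, the probe set ending in at alone had 11.99 and 12.51 in F98902, against 12.88 and 11.69 in Cm489. The x_at probe set of the same target had 12.16 and 12.57 in F98902, against 12.87 and 11.88 in Cm489. For these probe sets the F98902 arrays lay inside the range of the Cm489 arrays, with differences of -0.0350 and -0.0092. For the other target, the probe set ending in at alone had 13.68 and 13.94 in F98902, against 14.00 and 13.25 in Cm489, a difference of 0.18. Its a_at probe set had 12.60 and 11.65 in F98902, against 11.86 and 10.55 in Cm489, a difference of 0.92 (SE 0.69, limma adjusted p = 0.816). The last of these is also the rps6 probe set in which F98902 replicate 1 was above F98902 replicate 2, and whether the probe sets of rps6 differ from each other was not tested.

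The second S6 gene, rps6-2 (LOC542640), had 13.08 and 13.34 in F98902, against 13.20 and 12.11 in Cm489, a difference of 0.56 (SE 0.56). The gene rps27 (LOC542617), for a protein with a zinc finger, had 13.90 and 13.98 in F98902, against 13.79 and 12.92 in Cm489. Its arrays were apart, by a narrow margin, and the difference was 0.59 (SE 0.50, limma adjusted p = 0.834). The gene rps13 (LOC542726), a small subunit gene, had 12.45 and 13.14 in F98902, against 13.19 and 12.33 in Cm489, a difference of 0.0294. RPS10 (LOC541869) had 7.96 and 7.68 in F98902, against 7.52 and 7.50 in Cm489. Its arrays were apart with little spread within a line, yet the difference of 0.31 (SE 0.40, limma adjusted p = 0.902) was small beside the SE of the fit.

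Of the stalk genes, rpp2b (LOC542340), one of the P2 genes, had 14.66 and 13.70 in F98902, against 12.94 and 13.34 in Cm489. Both F98902 arrays were above both Cm489 arrays, and the difference was 1.04 (SE 0.53, limma adjusted p = 0.692). The P2 genes of the other type did not share that order of arrays. The gene rpp2a-2 (LOC542337) had 11.60 and 12.00 in F98902, against 12.27 and 11.07 in Cm489. The gene rpp2a-3 (LOC542338) had 9.34 and 11.54 in F98902, against 12.32 and 10.05 in Cm489. The gene rpp2a-4 (LOC542551) had 12.92 and 13.49 in F98902, against 13.69 and 13.01 in Cm489. Their arrays overlapped, with differences of 0.13 (SE 0.59), -0.75 (SE 1.18) and -0.15 (SE 0.50), and rpp2a-3 had the widest spread within each line of all tested members. Whether rpp2b differs from the rpp2a genes in its response to line was not tested.

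The gene rpp1a (LOC542719), for the P1 partner of P2 in the stalk, had 11.51 and 12.08 in F98902, against 12.06 and 11.20 in Cm489 by its a_at probe set. The gene rpp3 (LOC542339) codes for P3, a stalk protein known from plants only. Its x_at probe set had 12.43 and 13.03 in F98902, against 12.90 and 11.59 in Cm489. Its a_at probe set had 12.92 and 13.54 in F98902, against 13.45 and 12.54 in Cm489. On these stalk probe sets the arrays of the lines overlapped, with differences of 0.17, 0.49 and 0.24 and limma adjusted p of 0.968, 0.906 and 0.956.

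**Figure D2:**
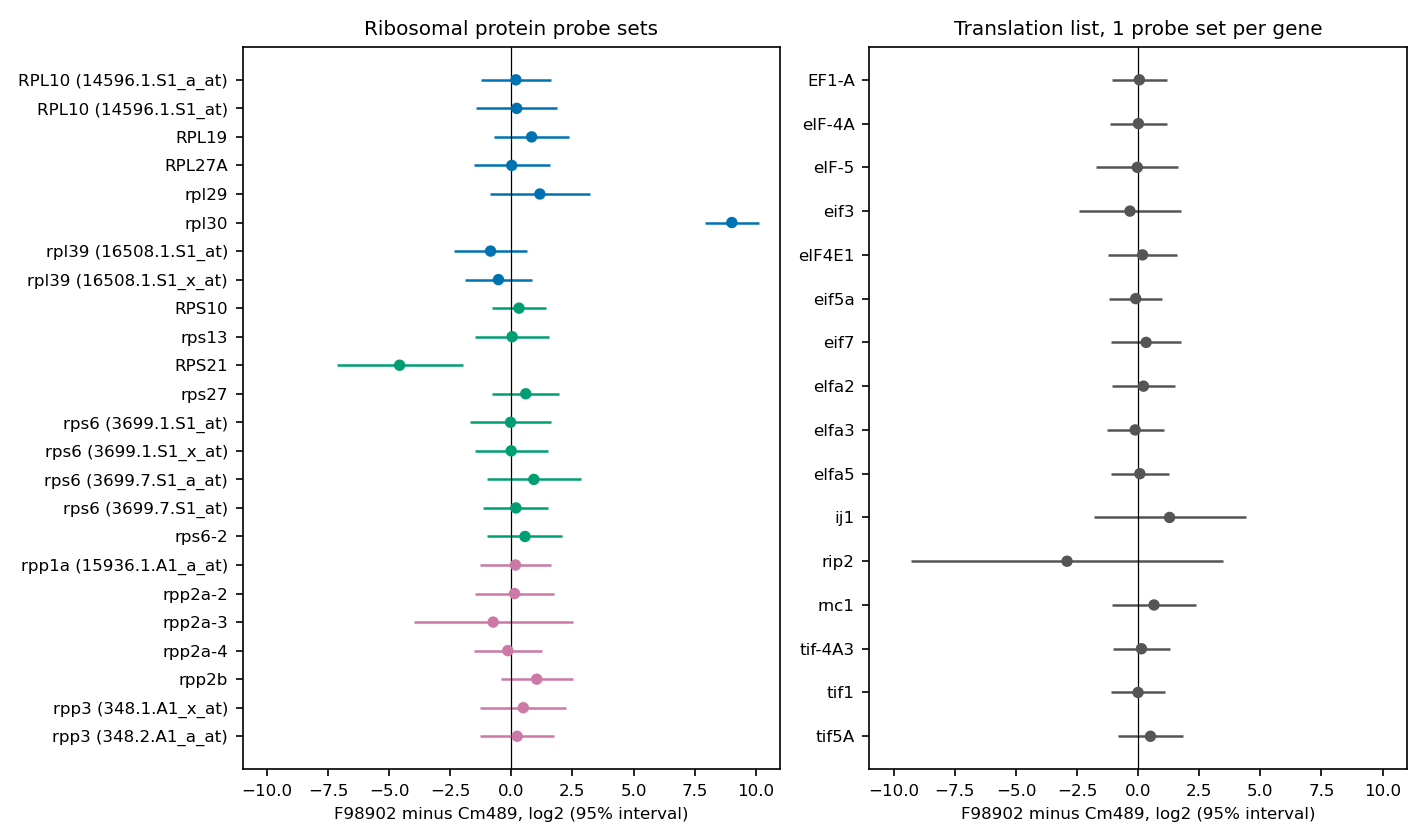
Difference F98902 minus Cm489 on the log2 scale (x axis) with its 95% interval from limma, for the 24 tested ribosomal protein probe sets (left, coloured by large subunit, small subunit and P protein as in the plot of signals) and for 16 other translation genes, 1 probe set each (right). All intervals but those of rpl30 and RPS21 hold 0, and the rpl30 point is the fitted value against a floor, not a measured fold.

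The ribosomal protein probe sets had differences in both directions between the lines, and whether they differ as a list was not tested. Of 24 tested probe sets 17 had the higher and 7 the lower mean in F98902, where 48.8% and 51.2% of all tested probe sets did so. The median difference was 0.18, against -0.0194 over all tested probe sets. With 1 array left out it was lowest without Cm489 replicate 2 (-0.21) and highest without Cm489 replicate 1 (0.58), and it was also below 0 without F98902 replicate 2 (-0.0968), so 1 array decided its sign. The number with the lower mean was 5 with each array shifted to 1 median, 7 with quantile normalization and 9 with each array shifted to 1 median of the members. With 1 probe set per gene, 14 of 18 genes had the higher mean and the median was again 0.18. By subunit the medians were 0.20 for the large subunit, 0.18 for the small subunit and 0.17 for the P proteins. The arrays of the lines did not overlap for 5 members higher and 2 lower in F98902, against 18.1% and 20.0% of all tested probe sets and 38.0% for both directions together. The 5 higher were rpl30, RPL19, rpp2b, rps27 and RPS10, and the 2 lower were RPS21 and 1 probe set of rpl39.

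Most ribosomal protein probe sets shared 1 order of the arrays within the lines. In 18 of the 24 tested probe sets F98902 replicate 2 was above F98902 replicate 1 while Cm489 replicate 1 was above Cm489 replicate 2, as in 40.9% of all tested probe sets. The 18 probe sets belong to all 3 groups, 5 from the large subunit, 7 from the small subunit and 6 of P proteins. In these 18, chosen by this order of arrays, replicate 2 minus replicate 1 ran from 0.0735 to 2.19 in F98902 (median 0.61) and from -2.28 to -0.61 in Cm489 (median -0.89). Taken singly, 18 of 24 members had F98902 replicate 2 above replicate 1 and 22 of 24 had Cm489 replicate 2 below replicate 1, against 51.8% and 56.7% of all tested probe sets. Counting 1 probe set per gene, 13 of 18 genes had both. These counts describe 4 arrays, and the genes on an array are not independent of each other.

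The median over all 24 members of replicate 2 minus replicate 1 was 0.54 in F98902 and -0.86 in Cm489, against 0.0486 and -0.11 over all tested probe sets. The opposite order, F98902 replicate 1 and Cm489 replicate 2 high, was shown by 2 members, rpl29 and rpp2b, and by 32.4% of all tested probe sets. In rpl29 replicate 2 minus replicate 1 was -1.40 in F98902 and 1.11 in Cm489, and in rpp2b it was -0.96 and 0.40. In RPL19, RPS10 and the a_at probe set of rps6, replicate 1 was the higher array of both lines. The same holds for rpl30 by value, but its Cm489 arrays lie at the floor and have no order. For 19 of the 24 members a difference between the arrays of 1 line was larger than the difference between the line means, which also held for 74.7% of all tested probe sets.

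**Figure D3:**
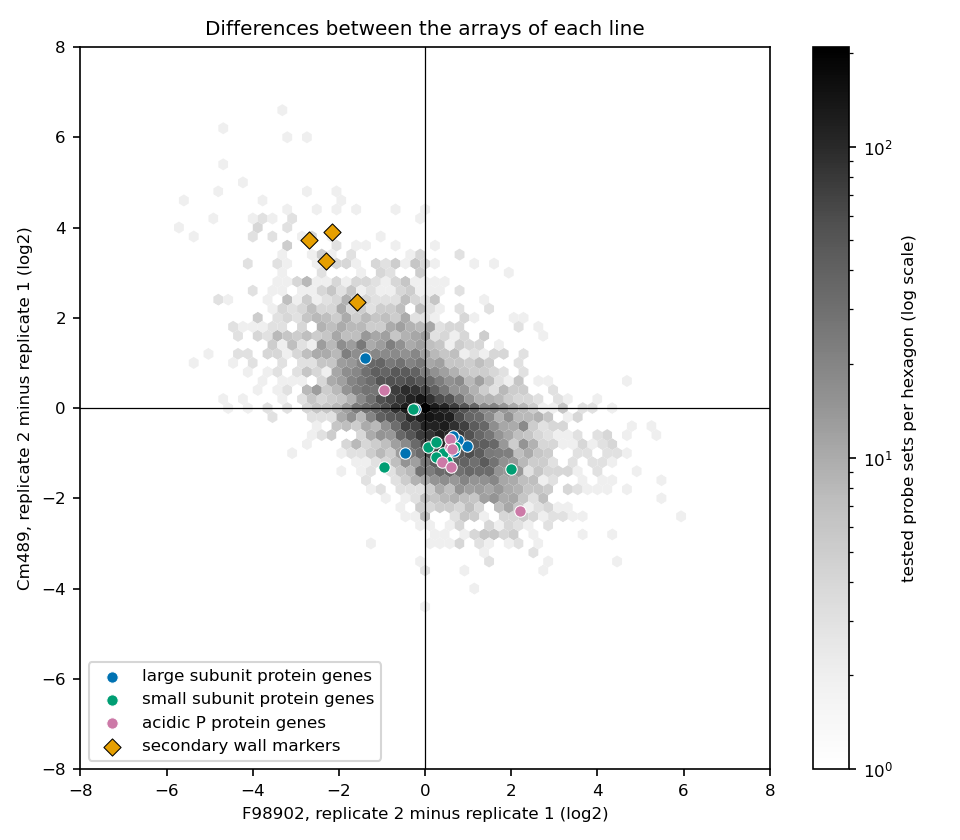
Replicate 2 minus replicate 1 on the log2 scale in F98902 (x axis) and in Cm489 (y axis). Grey hexagons count all 11242 tested probe sets on a log scale, coloured points are the 24 tested ribosomal protein probe sets by group, and orange diamonds are 4 secondary wall markers. Of the coloured points 18 lie in the lower right and 2 in the upper left, where all 4 secondary wall markers lie.

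Several markers of tissues an aerial sample may hold also differed between the arrays of a line. The 4 secondary wall markers cesa10, cesa11, CesA12 and bk2, which mark cells with thickening walls and do not name an organ, were all measured. Their summed signal was 14.93 and 12.69 in F98902, against 12.25 and 15.46 in Cm489. It was high on F98902 replicate 1 and Cm489 replicate 2, where most ribosomal protein probe sets were low. The summed signal of the 3 measured leaf markers of 6 listed (Ppdk1, pep1 and ssu1) was 13.27 and 11.86 in F98902, against 10.96 and 13.16 in Cm489. Within it pep1, the phosphoenolpyruvate carboxylase of C4 photosynthesis, was below log2 4 on 3 of the 4 arrays, with 2.79 and 2.37 in F98902, against 2.86 and 6.01 in Cm489. Of the other leaf markers, ssu1 had 12.79 and 10.60 in F98902, against 10.59 and 12.95 in Cm489. Ppdk1 had 11.45 and 11.08 in F98902, against 8.76 and 10.23 in Cm489, so it was higher on both F98902 arrays.

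The summed signal of the 2 measured meristem markers of 3 listed, kn1 and lg3, was 11.17 and 10.21 in F98902, against 10.47 and 11.36 in Cm489. The single markers did not follow 1 order: kn1 had 10.72 and 9.27 in F98902, against 9.94 and 11.26 in Cm489, and lg3 had 9.28 and 9.15 in F98902, against 8.76 and 7.52 in Cm489. The 3 measured kernel markers of 4 listed (gz27, bt2 and sh2) summed to 8.35 and 6.86 in F98902, against 7.36 and 9.65 in Cm489. That sum was carried by gz27, with 8.10 and 6.45 in F98902, against 6.68 and 9.58 in Cm489. The gene bt2 had 5.55 and 4.35 in F98902, against 4.70 and 4.83 in Cm489, and sh2 ran the other way, with 2.56 and 3.01 in F98902, against 5.16 and 3.16 in Cm489, below log2 4 on 3 of the 4 arrays. TUA1, the 1 measured pollen marker of 2 listed, had 11.15 and 11.78 in F98902, against 10.55 and 11.21 in Cm489. A measure of RNA integrity, the signal at the 5' end minus that at the 3' end of a control transcript, was -0.83 and -1.65 in F98902, against -1.61 and -1.02 in Cm489, for cyclophilin. For GAPDH it was -2.02 and -3.65 in F98902, against -4.10 and -3.27 in Cm489, and for ubiquitin -1.60 and -1.36 in F98902, against -1.60 and -1.55 in Cm489. For EF1-alpha it was -1.88 and -2.97 in F98902, against -3.42 and -4.44 in Cm489. The 18S ribosomal RNA control had 9.69 and 8.28 in F98902, against 7.00 and 7.68 in Cm489. The part of tissue make-up and of RNA integrity in the order of arrays that most ribosomal protein probe sets shared was not tested.

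Other genes of the translation machinery gave no call. The list held initiation and elongation factors and a few genes of plastid ribosomes, plastid RNA splicing or ribosome inactivation, 16 genes with 29 probe sets, all tested. By limma 0 of 29 passed in either direction, against 1.78% of all tested probe sets (adjusted p from 0.657 to 0.998). An unadjusted p under 0.05 was found for 0 of 29, against 10.5% of all tested probe sets. Of the 29, 13 had the higher and 16 the lower mean in F98902, with a median difference of -0.0100. Several genes of this list have more than 1 probe set. With 1 probe set per gene, 10 of 16 genes had the higher and 6 the lower mean, and the median was 0.0584. In 19 of 29 the arrays had the order of most ribosomal protein genes, with F98902 replicate 2 and Cm489 replicate 1 high. That order was found in 40.9% of all tested probe sets. The median of replicate 2 minus replicate 1 was 0.17 in F98902 and -0.40 in Cm489 for this list.

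The largest difference of that list belonged to rip2 (LOC541814), for a ribosome-inactivating protein that removes a base from ribosomal RNA. It had 4.65 and 11.06 in F98902, against 11.26 and 10.28 in Cm489, so F98902 replicate 1 alone was low. The difference of -2.91 (SE 2.31, limma adjusted p = 0.821) rests on that array. The gene ij1 (LOC542470), the iojap gene needed for plastid ribosomes, had 7.17 and 4.38 in F98902, against 3.94 and 5.04 in Cm489, a difference of 1.28 (SE 1.12). The gene rnc1 (LOC100125654), which acts in splicing of plastid introns, had 8.85 and 7.59 in F98902, against 7.33 and 7.82 in Cm489. On these plastid-linked genes F98902 replicate 1 was the highest array. For ij1 the other arrays, from 3.94 to 5.04, lay near the dim filter of log2 4, so its difference rests on that array.

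Initiation and elongation factors were among these 29, and none passed. The initiation factor gene eif3 (LOC542747) had 10.20 and 11.61 in F98902, against 11.83 and 10.66 in Cm489, an order of arrays like that of most ribosomal protein genes. The cap-binding gene eIF4E1 had 11.22 and 11.74 in F98902, against 11.71 and 10.90 in Cm489. The gene tif5A (LOC542601), for the hypusine-bearing factor, had 13.73 and 12.96 in F98902, against 12.86 and 12.82 in Cm489 by its s_at probe set, a difference of 0.50 with arrays apart. The gene elfa2 (LOC100037748), another gene of the EF1-alpha family, had 6.02 and 5.44 in F98902, against 7.80 and 5.63 in Cm489. This elfa2 probe set, 1 of 5, has the widest gap between line means, -0.98 (SE 0.88). EF1-A (LOC542581), for the elongation factor that brings aminoacyl-tRNA, had 14.03 and 13.88 in F98902, against 14.08 and 13.74 in Cm489 by its s_at probe set. The EF1-A probe set ending in at alone had 4.08 and 5.81 in F98902, against 7.71 and 6.02 in Cm489, with arrays apart and a difference of -1.92 (SE 0.94, limma adjusted p = 0.657). Its value on F98902 replicate 1 lay close to the dim filter of log2 4. The x_at probe set of EF1-A had 12.59 and 13.76 in F98902, against 13.44 and 13.48 in Cm489, a difference of -0.29 with overlapping arrays.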

How the data were processed

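The deposited values, 1 for each probe set on each array, ran from 1.18 to 15.28 and were taken as log2 from that range. Per the submitters' processing notes the authors used GCRMA (background correction, normalization across arrays, 1 summary per probe set); its version is not given in the sources used here. GCRMA pulls dim probe sets to a floor near log2 2. Of 17734 probe sets, 113 controls were left out. The 11242 with log2 at least 4 on at least 2 arrays were fitted with limma 3.58.1 in R 4.3.3 (lmFit and eBayes), as F98902 minus Cm489; two-sided p-values were adjusted by Benjamini-Hochberg, with 0.05 as threshold, and SEs are moderated. The fit was tested on simulated data. A difference from a line below log2 4 on both arrays is a lower bound against 4. With 2 arrays a line, the smallest two-sided p of an exact test is 0.333. Depth does not apply to arrays, and their number limits the precision.

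GEO's platform annotation gave the gene names, updated by Entrez number to RefSeq (assembly Zm-B73-REFERENCE-NAM-5.0): 1452 probe sets had 1 gene, 1 several and 16168 none, and 1377 of the 1452 matched RefSeq. Coordinates are left out, as the table states no build. Within-line differences of same-numbered arrays correlated at -0.56 over tested probe sets, and the labels do not say that numbers pair samples, so no block was used. The members and lists were chosen with earlier results of these data known. Members named were those past the threshold, those with arrays apart, the largest differences within and between lines, the brightest and those sharing a gene. The rest, among them RPL27A and rps13, were named so that all 26 probe sets are accounted for. Of the translation list those past the threshold and up to 3 per direction by size were named. Outside this rule, eif3, eIF4E1 and the s_at and x_at probe sets of EF1-A were added after their values were seen. Marker genes are given by 1 probe set each, the brightest, and their summed signal is the log2 of the sum of unlogged signals. The list of translation genes was set by symbol. Alternatives were other dim filters, priors and scalings, values raised to 4, the block, 1 probe set per gene and leaving out each array.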

Additional observations from a re-analysis of the deposited data

How the results depend on the processing

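The count of 1 ribosomal protein probe set past the threshold, rpl30, was 0 with an intensity-dependent robust prior, 0 with a replicate block by replicate number, and 0 to 0 over the left-out arrays; the crossed pairing, chosen after seeing the data like the scaling to 1 median of the members, gave 2 (1 higher, 1 lower). Over all tested probe sets the count of 200 (105 higher, 95 lower) was 79 with no dim filter, 8 with the robust prior, 115 with values under log2 4 raised to 4, 0 with the replicate block and 0 to 0 over the left-out arrays, where the spread of the single array left is taken from the other line (limma; 1183 at an unadjusted p under 0.05 in the full fit). The crossed pairing joins F98902 replicate 2 with Cm489 replicate 1, which takes up the opposed within-line differences already seen (correlation -0.56). Its counts are therefore no independent support for any call. It gave 284 (142 and 142), and the scaling to 1 median of the members gave 225 (107 and 118). The cause was not tested. The count of 0 translation genes was 0 under each alternative run, with 0 also at an unadjusted p under 0.05 in the full fit by limma. The median difference of the members ran from -0.21 to 0.58 over left-out arrays. Leaving out members whose description names no ribosomal protein was not run, since the annotation gives no descriptions.

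Of 288 values of the 24 probe sets, 252 kept direction and side of the threshold, 6 lost the rpl30 call and 30, of 13 probe sets that did not pass in the full fit, turned. With quantile normalization RPL27A turned to -0.0031 and the x_at probe set of rps6 to 0.0023. With each array shifted to 1 median the at and x_at probe sets of the first rps6 target turned to 0.0204 and 0.0462. With 1 median of the members RPL27A turned to -0.11 and rps13 to -0.0910. The range over left-out arrays was -0.16 to 0.53 and -0.27 to 0.71 (RPL10, a_at and at), -0.46 to 0.49 (RPL27A), -0.26 to 0.59 (rpp1a), -0.47 to 0.73 (rpp2a-2), -1.88 to 0.39 (rpp2a-3), -0.49 to 0.19 (rpp2a-4), -0.17 to 1.14 and -0.22 to 0.69 (rpp3, x_at and a_at), -0.40 to 0.46 (rps13), and -0.63 to 0.56, -0.50 to 0.49 and -0.19 to 0.56 (rps6, at and x_at of the first target and at of the other).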
